A study of Homo sapiens with 6 samples.

Results

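The PI3K, AKT and mTOR genes analysed here are 9 genes that carry growth signals from cell surface receptors to protein synthesis: PIK3CA, PIK3CB, PIK3R1, PIK3R3, AKT1, AKT2, MTOR, RICTOR and RPTOR. They were chosen by symbol, and all 9 were found, each at 1 locus, among the 22933 gene symbols of the deposited RNA-Seq table. All 9 were also among the 13004 symbols counted as expressed, meaning that 1 of the groups reached an FPKM of 1 and neither was at 0. FPKM is the number of sequenced fragments divided by transcript length and by library size, so that levels can be set side by side between genes. The cells were PC-3, an established human prostate cancer line derived from a bone metastasis. All 6 samples came from cells that carried the Tet-On transactivator rtTA2 and had been selected with G418, and all were kept in 300 ng/ml Dox for 4 hours. The 3 tdTom samples held the control retrovirus with tdTomato under the PGK promoter. The 3 TTP-tdTom samples held the same retrovirus with a TTP transgene behind the Dox-responsive promoter. TTP is an RNA-binding protein that takes mRNAs with AU-rich elements to decay. Both groups were sorted cell populations of 1 line, so that differences between the populations other than TTP cannot be told apart from it. The table gives 1 FPKM value per group and locus. These values do not show the spread between the 3 samples of a group, so that no test between groups was run here and no difference was compared with that spread. In bulk samples, fewer transcripts per cell and fewer cells with the transcript also cannot be told apart.

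ZFP36, the gene that encodes TTP, had an FPKM of 5.56 in tdTom and 5.54 in the group labelled TTP-tdTom, so that the RNA assigned to its locus did not differ in the way the label names. RNA-Seq does not measure TTP protein, and directions below are given by the labelled groups. Of 5 epithelial markers, EPCAM, KRT8, KRT18 and KRT19 reached an FPKM of 1 in both groups, and CDH1 was at 0.119 and 0.390. None of 3 leukocyte and 2 endothelial markers reached 1 in either group, and 2 of 4 prostate luminal markers reached it in both. Of 3 fibroblast and muscle markers, COL1A1 was at 4.34 and 4.56, COL3A1 was at 2.46 in tdTom and listed at 0 in the group labelled TTP-tdTom, and DES was below 1 in both. The summed FPKM of these 3 was 6.89 in tdTom and 4.60 in the other group, and its part in the results was not tested.

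PI3K is a lipid kinase made of a catalytic subunit (such as the products of PIK3CA and PIK3CB) and a regulatory subunit (PIK3R1, PIK3R3) that docks it to activated receptors. Its lipid product brings the AKT kinases to the membrane, where they are activated and act on survival, glucose use and growth. The kinase mTOR works in a pair of complexes: mTORC1, defined by the scaffold RPTOR, drives protein synthesis, and mTORC2, defined by RICTOR, phosphorylates AKT. In prostate cancer the pathway is known to be often activated.

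The 3′UTRs of the 9 genes were searched on the mRNA strand, with overlapping copies allowed, for TATTTAT, a heptamer found in many AU-rich elements. In the mRNA it reads UAUUUAU, and it contains the pentamer ATTTA. For each gene the search used the longest 3′UTR that GENCODE release 29 annotates. Copies were present in 4 of the 9 genes and numbered 11 in all. They are printed here, 5′ to 3′ on the mRNA strand and written as DNA with the heptamer in capitals, because the genes that hold them include those with the largest differences between the groups. Each line gives the gene, the position of the first heptamer base after the stop codon, and the printed window on GRCh38, which is the build of GENCODE and not that of the deposited table.
PIK3CB, base 556 (chr3:138654816-138654844, minus strand): tcttttgttaaTATTTATttccatgatag
PIK3CB, base 646 (chr3:138654726-138654754, minus strand): tgctacatataTATTTATaaaatttctag
PIK3CB, base 908 (chr3:138654464-138654492, minus strand): gaaaagaaaccTATTTATggaataaactc
PIK3CB, base 973 (chr3:138654399-138654427, minus strand): tcttcttactgTATTTATtaaaacttgta
RICTOR, base 6 (chr5:38942281-38942303, minus strand): cctcaTATTTATgatggatatag
RICTOR, base 3116 (chr5:38939171-38939199, minus strand): tttcctactgcTATTTATataaaatgtta
RICTOR, base 4170 (chr5:38938117-38938145, minus strand): gaaagaaaaagTATTTATattttttctgt
PIK3CA, base 945 (chr3:179235298-179235326, plus strand): ttattaaaggcTATTTATattatagaaac
PIK3CA, base 1360 (chr3:179235713-179235741, plus strand): cctttttaaacTATTTATccatatctcca
PIK3CA, base 5063 (chr3:179239416-179239444, plus strand): aaatcattatcTATTTATttcatttttat
RPTOR, base 1935 (chr17:80966254-80966282, plus strand): ggctcattatcTATTTATtttaccaaacg

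The class I catalytic subunits PIK3CB and PIK3CA were among the 3 of the 9 genes with the lowest log2 ratios, RICTOR being the other. PIK3CB, at chromosome 3 of GRCh37 from 138371540 to 138553806, had an FPKM of 17.7 in tdTom and 8.61 in the group labelled TTP-tdTom, a log2 ratio of -1.04, or 51.4% less. Of the 13004 expressed symbols, 7.59% had a lower log2 ratio than PIK3CB. PIK3CA, on the same chromosome from 178865914 to 178957179, encodes the catalytic subunit most often mutated in human cancers. Its FPKM was 19.1 in tdTom and 11.5 in the group labelled TTP-tdTom, a log2 ratio of -0.73, and 16.8% of expressed symbols had a lower one. Part of PIK3CA has a near-identical pseudogene copy elsewhere in the genome, and how reads were divided between them was not analysed here. The FPKM of PIK3CA was 1.08 times that of PIK3CB in tdTom and 1.34 times in the group labelled TTP-tdTom, a comparison within each group that no scaling between groups can alter. PIK3CA made up 46.6% of the summed FPKM of the 4 class I catalytic genes in tdTom and 49.8% in the other group, and PIK3CB made up 43.2% and 37.3%. PIK3CD, the catalytic gene best known from leukocytes, had 9.13% and 10.5% of this sum. PIK3CG was below an FPKM of 1 in both groups.

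The regulatory subunits differed less between the groups. PIK3R1 encodes the main regulatory subunit, which stabilises the catalytic subunit and holds it inactive until a receptor is engaged. Its locus, on chromosome 5 from 67511584 to 67597662, had an FPKM of 4.69 in tdTom and 3.38 in the group labelled TTP-tdTom, a log2 ratio of -0.47. PIK3R3 encodes a shorter regulatory subunit. Its locus, on chromosome 1 from 46504825 to 46598808, had 6.11 and 5.50, a log2 ratio of -0.15, which turned to 0.08 when the log2 ratios were centred on the median of all expressed symbols. PIK3R1 was the gene with the lowest level of the 9 in both groups, and it stood at 0.769 times the FPKM of PIK3R3 in tdTom and at 0.614 times in the group labelled TTP-tdTom. Summed over the class I genes of the pathway list, the FPKM of the 4 catalytic genes was 2.36 times that of the 5 regulatory genes in tdTom (41.0 against 17.4). In the group labelled TTP-tdTom it was 1.63 times (23.1 against 14.2). The balance of catalytic to regulatory transcripts was thus nearer to even in the group labelled TTP-tdTom.

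AKT1 was the most abundant of the 9 genes in both groups. It encodes the AKT kinase present in nearly all tissues and lies on chromosome 14 from 105235687 to 105262080. Its FPKM was 38.0 in tdTom and 29.4 in the group labelled TTP-tdTom, a log2 ratio of -0.37. AKT2, known for its part in insulin-stimulated glucose uptake, lies on chromosome 19 from 40736224 to 40791302. It was the 1 member with the higher value in the group labelled TTP-tdTom, with an FPKM of 9.71 in tdTom and 10.4 in the other group, a log2 ratio of 0.10 or 1.07-fold. No scaling that was tried turned this sign, and 85.0% of expressed symbols had a lower log2 ratio than AKT2. AKT1 was 3.91 times as abundant as AKT2 in tdTom and 2.83 times in the other group.

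Among the mTOR genes, the difference between the groups was larger for RICTOR, the defining subunit of mTORC2, than for RPTOR, that of mTORC1. RICTOR, at chromosome 5 from 38938022 to 39074501, had an FPKM of 12.0 in tdTom and 6.59 in the group labelled TTP-tdTom, a log2 ratio of -0.87 or 45.2% less, and 12.2% of expressed symbols had a lower ratio. RPTOR, at chromosome 17 from 78518239 to 78940204, had 7.69 and 6.67, a log2 ratio of -0.21. After centring on the median of all expressed symbols RPTOR was at 0.03, so that its direction depends on the scaling. MTOR itself, at chromosome 1 from 11166588 to 11322608, had 5.82 and 4.57, a log2 ratio of -0.35. The FPKM of RPTOR was 0.640 times that of RICTOR in tdTom and 1.01 times in the group labelled TTP-tdTom. RICTOR was thus the higher of the pair in tdTom, and the values of the pair were nearly equal in the other group. MTOR stood at 0.757 and 0.685 times RPTOR and at 0.484 and 0.694 times RICTOR. Of the subunits that both complexes share, MLST8 had an FPKM of 28.9 and 23.8.

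**Figure D1:**
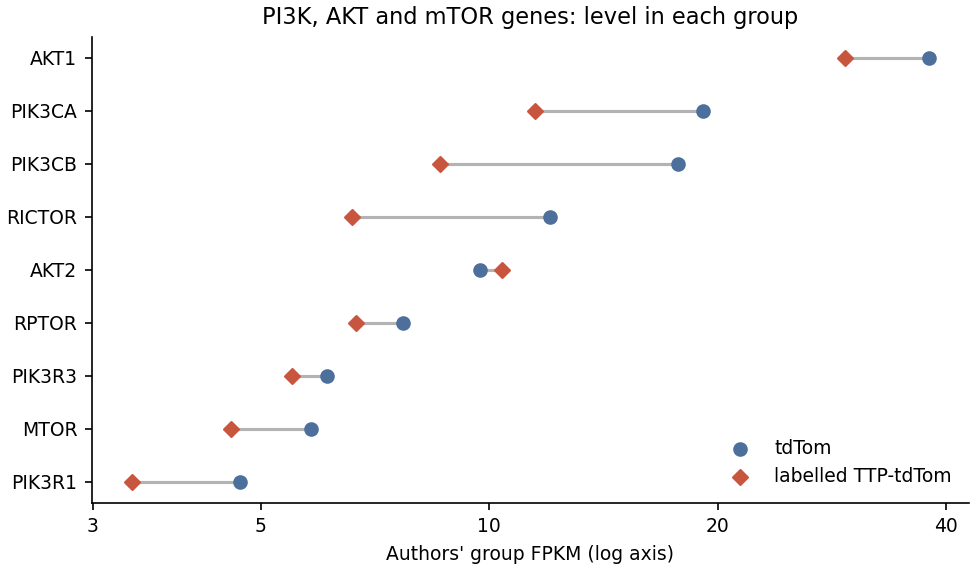
The FPKM of each of the 9 genes (log axis) in tdTom (circles) and in the group labelled TTP-tdTom (diamonds), 1 value per group and no error bars because single samples were not available in the table. The line between the symbols is longest for PIK3CB, from 17.7 to 8.61, and only AKT2 has its diamond to the right, as deposited; centred on the median of all expressed symbols, RPTOR and PIK3R3 turn as well.

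Set side by side, 8 of the 9 genes were lower and 1 was higher in the group labelled TTP-tdTom (6 and 3 after centring, which turns RPTOR and PIK3R3), and 78.5% of all expressed symbols were lower too. The log2 ratios ran from -1.04 to 0.10 with a median of -0.37, against a median of -0.23 over the 13004 expressed symbols. A single member, PIK3CB, was at least 2-fold lower, which is 11.1% of the 9 beside 8.65% of expressed symbols, and it was short of 2-fold, at -0.99, once the groups were rescaled to the same sum. None was at least 2-fold higher, beside 2.45% of expressed symbols. At 1.5-fold, 3 of the 9 were lower (PIK3CB, RICTOR and PIK3CA) beside 22.8% of expressed symbols, and none was higher beside 3.9%. These shares lie near those of all genes or rest on 1 to 3 genes, and nothing particular to the set is read from them. Relative to the median of all expressed symbols, the ratios were -0.81 for PIK3CB, -0.63 for RICTOR, -0.50 for PIK3CA, -0.24 for PIK3R1, -0.13 for AKT1 and -0.11 for MTOR. RPTOR (0.03), PIK3R3 (0.08) and AKT2 (0.33) lay above that median. In order of level, tdTom had AKT1, PIK3CA, PIK3CB, RICTOR, AKT2, RPTOR, PIK3R3, MTOR and PIK3R1. In the group labelled TTP-tdTom the order was AKT1, PIK3CA, AKT2, PIK3CB, RPTOR, RICTOR, PIK3R3, MTOR and PIK3R1. AKT2 thus stood above PIK3CB and RPTOR above RICTOR in that group only, the latter by 6.67 to 6.59, and without a spread between samples no neighbours in either order can be said to differ.

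**Figure D2:**
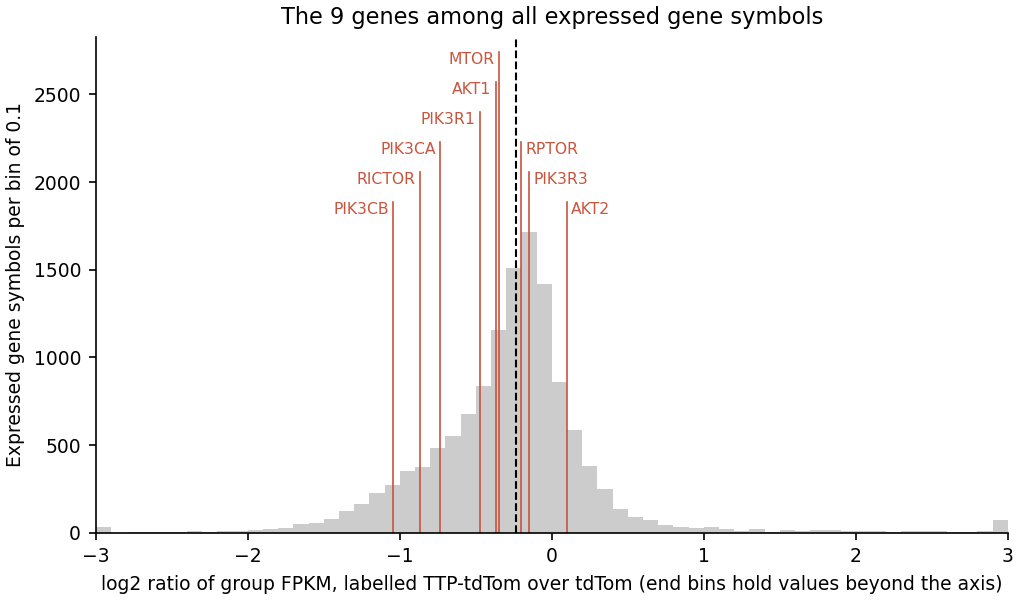
Log2 ratios of group FPKM for all 13004 expressed symbols (grey bars, number of symbols per bin of 0.1, with values beyond the axis in the end bins) and for the 9 genes (red lines). The dashed line is the median of all expressed symbols, -0.23, and 6 of the 9 genes lie to its left.

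The heptamers printed above were unevenly spread over the 9 genes. PIK3CB held 4 copies in a 3′UTR of 2690 bases, all of them within a stretch of 424 bases. RICTOR held 3 in 4385 bases, the first of them 6 bases after the stop codon, and PIK3CA held 3 in 5729 bases. RPTOR held 1 copy in 2038 bases. No copy was found in the 3′UTRs of PIK3R1 (4220 bases), PIK3R3 (3533), AKT2 (3555), AKT1 (992) and MTOR (950). The 3 genes with 3 or more copies were therefore the 3 that were at least 1.5-fold lower. None of the 9 held the longer nonamer TTATTTATT.

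Long 3′UTRs hold the heptamer often. Of the 13004 expressed symbols, 11051 or 85.0% were matched to a 3′UTR, and 36.3% of these held at least 1 heptamer and 7.33% at least 3. Among symbols with a 3′UTR within 20% of the length of that of PIK3CB, 2.86% held 4 copies or more. Of those with a length near that of RICTOR 18.6% held 3 or more, and near that of PIK3CA 28.4%. At lengths near those of PIK3R1, AKT2 and PIK3R3, 67.2%, 61.4% and 61.1% held at least 1, while these genes held 0. AKT1 and MTOR also held 0, but at lengths near theirs only 22.7% each held at least 1. Near the length of RPTOR, which held 1, 42.3% held at least 1. Over all matched symbols, the median log2 ratio was -0.17 with 0 copies, -0.36 with 1, -0.52 with 2 and -0.63 with 3 or more. At least 1.5-fold lower were 14.1% of symbols with 0 copies and 52.6% of those with 3 or more. Symbols with 3 or more copies also had a lower median GC content of the transcript (40.1% against 51.5%) and a longer median 3′UTR (4479 against 922 bases), and the part of either in the difference was not tested.

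**Figure D3:**
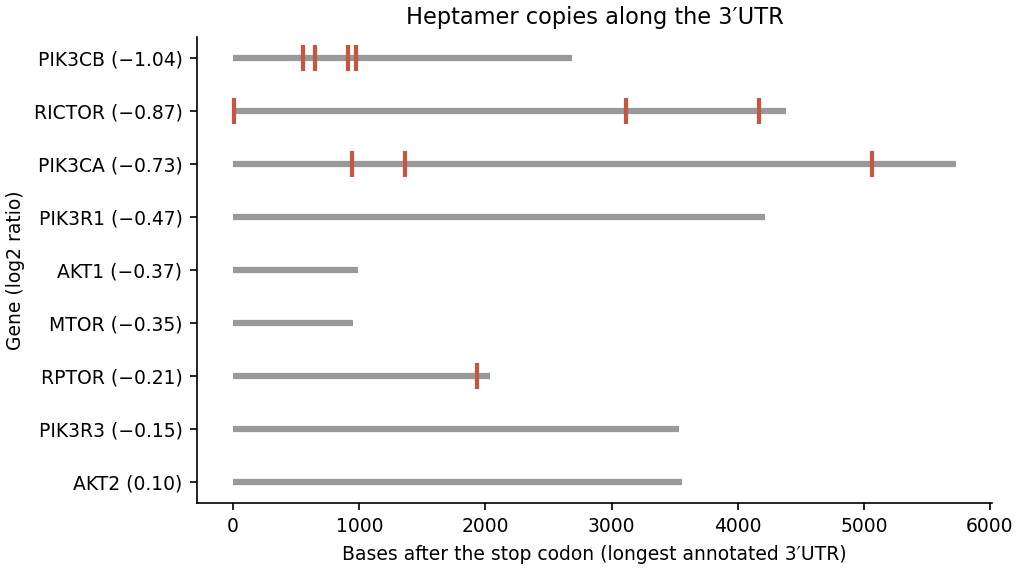
Positions of TATTTAT (red marks) along the 3′UTR used for each gene (grey bars, in bases after the stop codon), ordered by the log2 ratio in brackets. The 3 genes with the lowest ratios carry 4, 3 and 3 marks, RPTOR carries 1, and 5 genes carry none.

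GC content moved with the log2 ratio over the whole table, and the 9 genes can be set against genes of like GC content. In the decile of matched symbols with the lowest transcript GC content, the median log2 ratio was -0.76, and in the highest it was -0.09. PIK3CA, with a GC content of 34.8%, had a log2 ratio 0.03 above the median of its decile, and RICTOR (36.5%) had one 0.11 below. PIK3CB (39.4%) was 0.47 below its decile median of -0.57, where 17.2% of symbols were lower still. PIK3R1, with 40.3% in the same decile, lay 0.09 above that median. AKT1, RPTOR and AKT2, with GC contents from 58.3% to 59.8%, shared a decile with a median of -0.11. In it AKT1 lay 0.26 below the median, with 13.1% of symbols lower, RPTOR 0.10 below and AKT2 0.20 above, with 81.5% of symbols lower. MTOR (52.2%) lay 0.21 below the median of its decile, with 20.5% of symbols lower, and PIK3R3 (45.8%) lay 0.10 above that of its own. PIK3CA and RICTOR were thus near the middle of genes of like GC content, whereas AKT1, PIK3CB and MTOR lay toward the low side and AKT2 toward the high side. The part of GC content in these values was not tested.

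**Figure D4:**
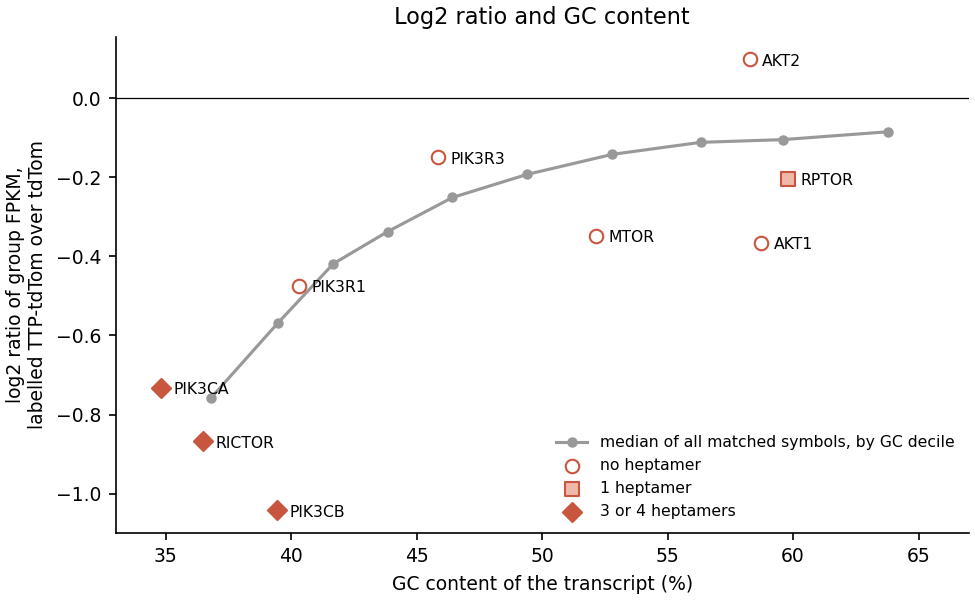
Log2 ratio of each of the 9 genes against the GC content of its transcript in percent, with the symbol showing the number of heptamers. The grey line joins the medians of all matched symbols in deciles of GC content, from -0.76 at the lowest to -0.09 at the highest; PIK3CB lies 0.47 below the median of its decile and AKT2 0.20 above.

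The 9 genes were read beside a wider list of 76 pathway genes grouped by role, of which 74 were in the table under the listed symbol and 62 were expressed. Of the 62, 51 were lower and 11 higher in the group labelled TTP-tdTom, where 78.5% of all expressed symbols were lower, and the median log2 ratio was -0.34. Centred on the median of all expressed symbols, 36 of the 62 were below it and 26 above, so that the counts by role below are given on both scales. At least 2-fold lower were 3 genes, or 4.84% beside 8.65% of all expressed symbols, and none was at least 2-fold higher. PIK3C2G, 1 of the 3, reached an FPKM of 1 in tdTom only. With an FPKM of at least 1 required in both groups the count was 2, beside 7.92% of expressed symbols. With a pseudocount of 1 it was 1, beside 5.2%. RHEB, the small GTPase that switches on mTORC1, was the largest of the 3 in level. Its FPKM was 54.0 in tdTom and 15.5 in the group labelled TTP-tdTom, a log2 ratio of -1.80, and only 0.45% of symbols in its GC decile had a lower one. The 3′UTR of RHEB, of 1107 bases, held 0 heptamers. RHEB has processed pseudogenes, and how reads were divided among them was not analysed here. PIK3C2G, a class II PI3K, had 1.45 and 0.284, a log2 ratio of -2.34 at a level near the minimum. Another locus with this symbol and the same coordinates went the other way, with 0.081 in tdTom and 0.232 in the group labelled TTP-tdTom. PIK3CB, one of the 9, was the other gene.

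Upstream of AKT, PDPK1, the kinase that activates AKT at the membrane, had an FPKM of 3.90 in tdTom and 2.24 in the group labelled TTP-tdTom (log2 ratio -0.80). PDPK1 has a near-identical copy in the genome, which may make this value uncertain, and how reads were divided between them was not analysed here. The 5 expressed genes of its group, which holds PDPK1 and phosphatases that oppose PI3K or AKT, were lower in 5 of 5 cases on both scales, with PHLPP2 the nearest to 0 at -0.43. The receptors and adaptors that feed PI3K were lower in 6 of 6 expressed genes, from -0.41 for IRS1 to -0.10 for IGF1R, but after centring in 3 of 6, with IGF1R among those that turned. Of the class II and III PI3K genes 4 of 5 were lower on both scales, with a median of -0.48, and PIK3C2B was at 0.03.

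In the mTOR complexes 9 of 10 expressed subunits and partners were lower, and 6 of 10 after centring, with RICTOR the lowest and TTI1, a chaperone factor for mTOR and related kinases, the highest at 0.22. Of the TSC and RHEB genes 4 of 5 were lower on both scales, with a median of -0.56. TSC1, which restrains RHEB, was the other, at 0.11 with an FPKM of 8.58 and 9.28. The Rag and Ragulator genes, which tether mTORC1 to the lysosome, and their sensors had 5 higher and 4 lower genes of 9, or 6 and 3 after centring, and a median of 0.08. Within it RRAGC was the lowest at -0.60, and SESN2, a stress-induced inhibitor of mTORC1, was the highest of all 62 at 0.59, with 2.61 and 3.93.

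Downstream, 11 of 13 expressed genes were lower, but after centring the majority turned, with 5 below and 8 above the median of all expressed symbols. EIF4E, the cap-binding translation factor held in check by the mTORC1 targets EIF4EBP1 and EIF4EBP2, was the lowest, with an FPKM of 8.48 in tdTom and 4.48 in the group labelled TTP-tdTom (log2 ratio -0.92). GRB10, an adaptor phosphorylated by mTORC1, was the highest at 0.23. Over all matched symbols 36.3% held at least 1 heptamer, with a median log2 ratio of -0.44 against -0.17 for those with 0. Outside the 9, heptamers were present in the 3′UTR of 22 of the 53 expressed genes of the list. The median log2 ratio of these 22 was -0.42, against -0.25 for the 31 without. The ranges of the 22 and the 31 overlapped widely, from -0.92 to 0.23 with a heptamer and from -2.34 to 0.59 without. The 3 of these genes with 3 or more copies, EIF4E and PIK3CD among them, lay between -0.92 and -0.63, while GRB10, with 1 copy, was at 0.23 and RHEB, with 0 copies, at -1.80. No test of copy number was run.

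**Figure D5:**
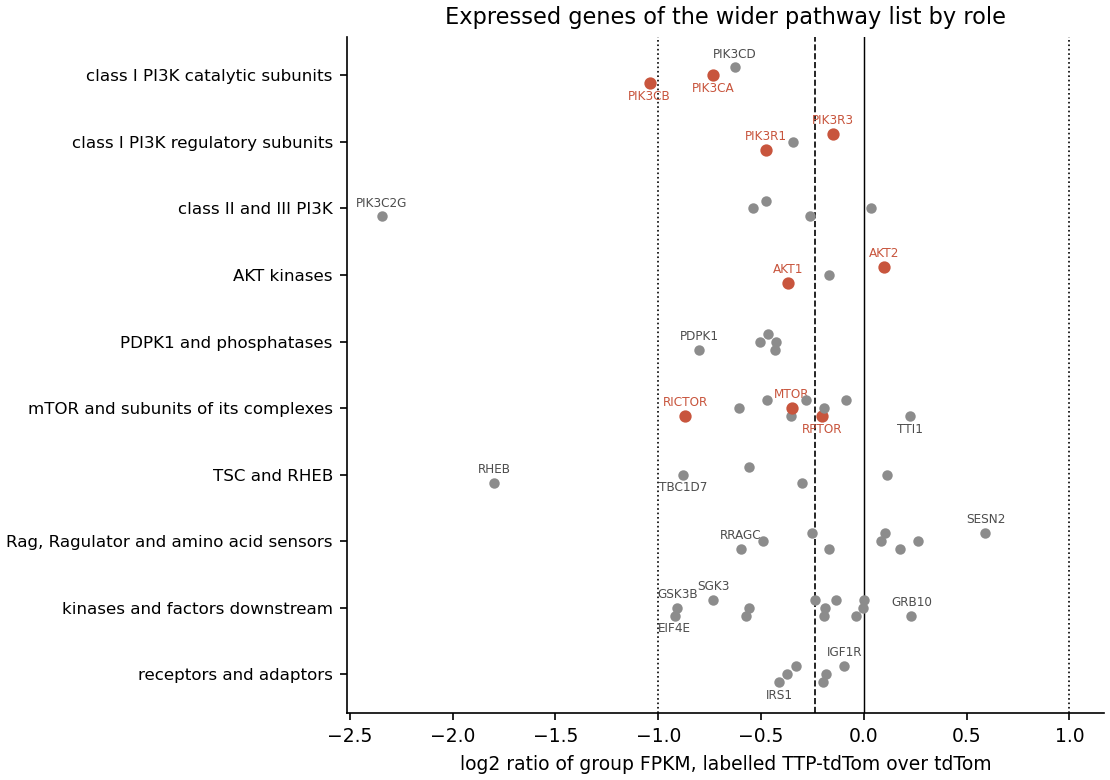
Log2 ratios of the 62 expressed genes of the pathway list by role, with the 9 genes in red, 1 point per gene. The dashed line is the median of all expressed symbols (-0.23) and the dotted lines mark 2-fold; RHEB (-1.80), PIK3C2G (-2.34) and PIK3CB (-1.04) lie past the left one.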

How the data were processed

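Strand-specific paired-end libraries of 6 PC-3 samples were aligned by the authors with TopHat2 (2.0.13) to Hs37D5 (GRCh37 with decoy sequence) and assembled and compared with Cufflinks (2.2.1), per the study's methods and the submitters' processing notes. The deposited FPKM values are the authors' own, 1 per group and gene locus. The same table holds the authors' fold changes and p-values, which were not used. Log2 ratios of the group labelled TTP-tdTom over tdTom were computed from the FPKM without a pseudocount, and genes were called by fold (2 or 1.5) with no test. Where a symbol had more than 1 locus, that with the most RefSeq names was taken, with ties settled by the higher summed FPKM. Starts are counted from 1. The study's methods state a target depth per sample, but FPKM holds no counts, so that the depth reached was not computed and no intervals are given. The members and lists were chosen with earlier results of these data known. Alternatives were pseudocounts, 2 other scalings, other choices of locus, FPKM minimum, threshold and motif. Named are the 9 members, ZFP36 and, per role, genes past 2-fold and the lowest and highest expressed genes; other names were added after values were seen. 3′UTRs were matched by symbol to GENCODE release 29 (GRCh38). Some genes of the lists are not reported here by name. Functions were tested on simulated data. Python 3.11.15, numpy 2.4.6, pandas 2.3.3 and matplotlib 3.10.9 were used.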

Additional observations from a re-analysis of the deposited data

How the results depend on the processing

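No paired analysis was possible because the deposited table holds 1 value per group, so that neither a replicate block nor leaving out each replicate could be run. The median log2 ratio of the 9 genes, -0.37, was -0.36 with a pseudocount of 1, -0.31 after rescaling both groups to an equal FPKM total over named loci, and -0.13 with the median of expressed symbols set to 0. Log2 ratios turned to 0.030 for RPTOR and 0.085 for PIK3R3 in the last of these. The count of 1 member at least 2-fold lower was 0 with a pseudocount of 1, rescaled or centred and 3 at 1.5-fold. The share of all expressed symbols called lower also depended on the setting. It was 8.65% as deposited, 5.2% with a pseudocount of 1, 7.36% rescaled, 4.2% centred and 22.8% at 1.5-fold. Of the pathway list, 3 genes were at least 2-fold lower. The count was 2 when rescaled or centred, and 1 with a pseudocount of 1. With an FPKM minimum of 10 the count was 2 of the 28 listed genes that passed, beside 10.8% of all symbols that passed. At 1.5-fold it was 13, or 21.0% of the 62 expressed genes beside the 22.8% of all expressed symbols. No gene of the list was at least 2-fold higher, against 1 at 1.5-fold (SESN2), 1 with no FPKM minimum and 1 with the locus of highest FPKM. Heptamers were in 4 of the 9 genes. Searches chosen after seeing the data found the nonamer in 0, the pentamer ATTTA in 8 (all but MTOR) and the heptamer in 4 again with the RefSeq-named transcripts. The centred counts by role were also added then. For the nonamer and the pentamer no share over all matched symbols is given, so that nothing is read from these counts.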

Other observations

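The locus of PIK3CB held 13 further assembled loci without a gene symbol and with the same coordinates. Their FPKM reached 2.22 in tdTom and 3.23 in the group labelled TTP-tdTom, with medians of 1.09 and 0.771. Of the 10 with values above 0 in both groups, 6 were lower and 4 higher in the group labelled TTP-tdTom, so that these loci did not share the direction of PIK3CB in every case. MTOR held 2 such loci, both lower, and PIK3R3 held 1. PIK3CA, PIK3R1, AKT1, AKT2, RICTOR and RPTOR held 0.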
